A study of Mus musculus with 8 samples.

Results

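The BCL2 family decides at the mitochondrion whether a cell lives or dies, and 9 of its genes were followed here in common dendritic cell progenitors (CDPs) of obese and lean mice. They were Bcl2, Bcl2l1, Mcl1 and Bcl2a1b, which protect cells, Bak1, which opens the mitochondrial outer membrane, and Bcl2l11, Bid, Bad and Bmf, which start the process. The genes were found by their symbols in GENCODE vM21, and 9 of 9 were present among the 16119 genes of the count table. All 9 passed the filter on low counts and were among the 15837 genes compared.

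CDPs (Lin-, c-Kit intermediate, Sca1 low, CD115+, Flt3+) were sorted from the BM of C57BL/6 mice (C57BL/6J in the study's methods), and their total RNA was sequenced to ask how diet-induced obesity changes progenitors that are restricted to the DC lineage. The HFD group, which the labels give as DIO, received 60 kcal% fat for 16 weeks, and its 4 libraries are written HFD1 to HFD4. The CF group, given as DIO-Control and matched in age, received 10 kcal% fat, and its 4 libraries are written CF1 to CF4. The labels name no transgene or drug in either group. About 50000 cells were sorted for each library, and the sources used here do not say whether these came from 1 mouse or from a pool. The p-values therefore measure the spread between these libraries.

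Proteins of the family meet through a short stretch called the BH3 region. The protective members bind the BH3 region of the others and hold them in check, the BH3-only members are raised or released under stress, and once the effectors BAK1 and BAX are free they form pores through which cytochrome c leaves the mitochondrion and caspases are activated. DC progenitors are known to depend on cytokine signals such as Flt3 ligand for survival, and BCL2 proteins are among the targets of such signals in blood cells.

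The BH3 region is known for a leucine followed, after a gap, by a glycine and an aspartate, so the coding sequences were searched in frame for the 18-letter pattern CTNNNNNNNNNNGGNGAN, in which N stands for any base. It was present in 6 of the 9 genes and in 21.2% of 21721 protein-coding genes searched, so it does not define the family. The matches are shown because they are the stretch by which these proteins are recognised. They come from the GENCODE vM21 transcripts, are given on the coding strand with the fixed letters in capitals, and each lies within 1 coding exon of GRCm38.
Bcl2 (chr1:106712578-106712607, minus strand): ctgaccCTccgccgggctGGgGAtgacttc
Bcl2l1 (chr2:152829700-152829729, minus strand): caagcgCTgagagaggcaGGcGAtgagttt
Mcl1 (chr3:95659430-95659459, plus strand): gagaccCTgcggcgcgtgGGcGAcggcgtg
Bak1 (chr17:27022534-27022563, minus strand): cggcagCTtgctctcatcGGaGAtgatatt
Bid (chr6:120897292-120897321, minus strand): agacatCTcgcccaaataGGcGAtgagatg
Bcl2l11 (chr2:128147144-128147173, plus strand): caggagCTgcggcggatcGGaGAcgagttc

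Bcl2l11 carried this stretch in 4 of its 5 coding transcripts, and counts per gene do not tell the transcripts apart. These letters did not occur in frame in the coding sequences of Bcl2a1b, Bad and Bmf, which says nothing more than that.

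The 8 libraries held between 28203651 and 48409689 counts, of which 11819701 to 15164732 fell on protein-coding genes. These were 38.9% to 41.9% of the counts in HFD, but 28.3%, 34.1% and 33.9% in CF1 to CF3 and 42.0% in CF4, and CF1 had the lowest TMM factor (0.80). In its markers HFD1 stood apart from the other libraries. Its 15 neutrophil markers summed to 20910 CPM (counts as a proportion of the library, scaled by TMM, a factor for library composition), against 978 to 3646 CPM in HFD2 to HFD4 and 1996 to 6695 CPM in CF, and 15 of the 15 were highest in HFD1. The 10 erythroid markers summed to 723 CPM in HFD1, 117 to 167 CPM in the other HFD libraries and 103 to 181 CPM in CF, with 10 of 10 highest in HFD1. For 10 B cell markers the sum was 1309 CPM in HFD1 and 323 to 661 CPM in the other 7 libraries, but only 5 of 10 were highest in HFD1, and Ighm (728 CPM) and Igkc (473 CPM) made up most of that sum. No marker of these 3 lists was at 0 in any library. Markers that the sorted progenitors should carry were present throughout, but their sum was lowest in HFD1, at 575 CPM against 895 to 1246 CPM in the other libraries. This came from Irf8, with 251 CPM in HFD1 against 372 to 674 CPM elsewhere, from Flt3, with 88.8 CPM against 227 to 378 CPM, and from Cd34, while Kit and Csf1r in HFD1 lay within the range of the other libraries and Spi1 was highest there. Results are therefore also given without HFD1, and without HFD1 and CF1 together, a choice made after the data were seen because CF1 had the lowest neutrophil sum of its diet. Since the library left out was the highest of HFD and the lowest of CF, that choice by itself lowers neutrophil-linked genes in HFD against CF, and calls made with it are no independent evidence. In bulk RNA, fewer cells of a type and less RNA per cell cannot be told apart.

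None of the 9 genes was called between the diets. By edgeR's quasi-likelihood test, 0 of 9 passed an adjusted p of 0.05, where 0.423% of all genes tested did, all of them lower in HFD. At an unadjusted p below 0.05, 1 of 9 passed (Bcl2l11, lower in HFD), against 8.56% of all genes. All 9 are protein-coding, and of the 11775 protein-coding genes tested 4 were called, with 197 lower and 437 higher in HFD at an unadjusted p below 0.05, where over all genes 845 were lower and 510 higher. This balance depended on the scaling, since with library size alone 611 of all genes were lower and 1571 higher. Under DESeq2, limma voom, limma voom with sample quality weights and a linear model on log2(CPM + 1), 0 of 9 were called as well, and each had 1 of 9 at an unadjusted p below 0.05, which was Mcl1 with the quality weights and Bcl2l11 in the others. In 0 of the 9 genes were the groups of 4 apart, which was so for 6.16% of all genes. Of the 9 fold changes, 3 were positive and 6 negative, with a median of -0.13 on the log2 scale, beside 0.055 for all genes and 0.070 for protein-coding genes. With library size alone the median of the 9 was 0.056, beside 0.25 for all genes.

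**Figure D1:**
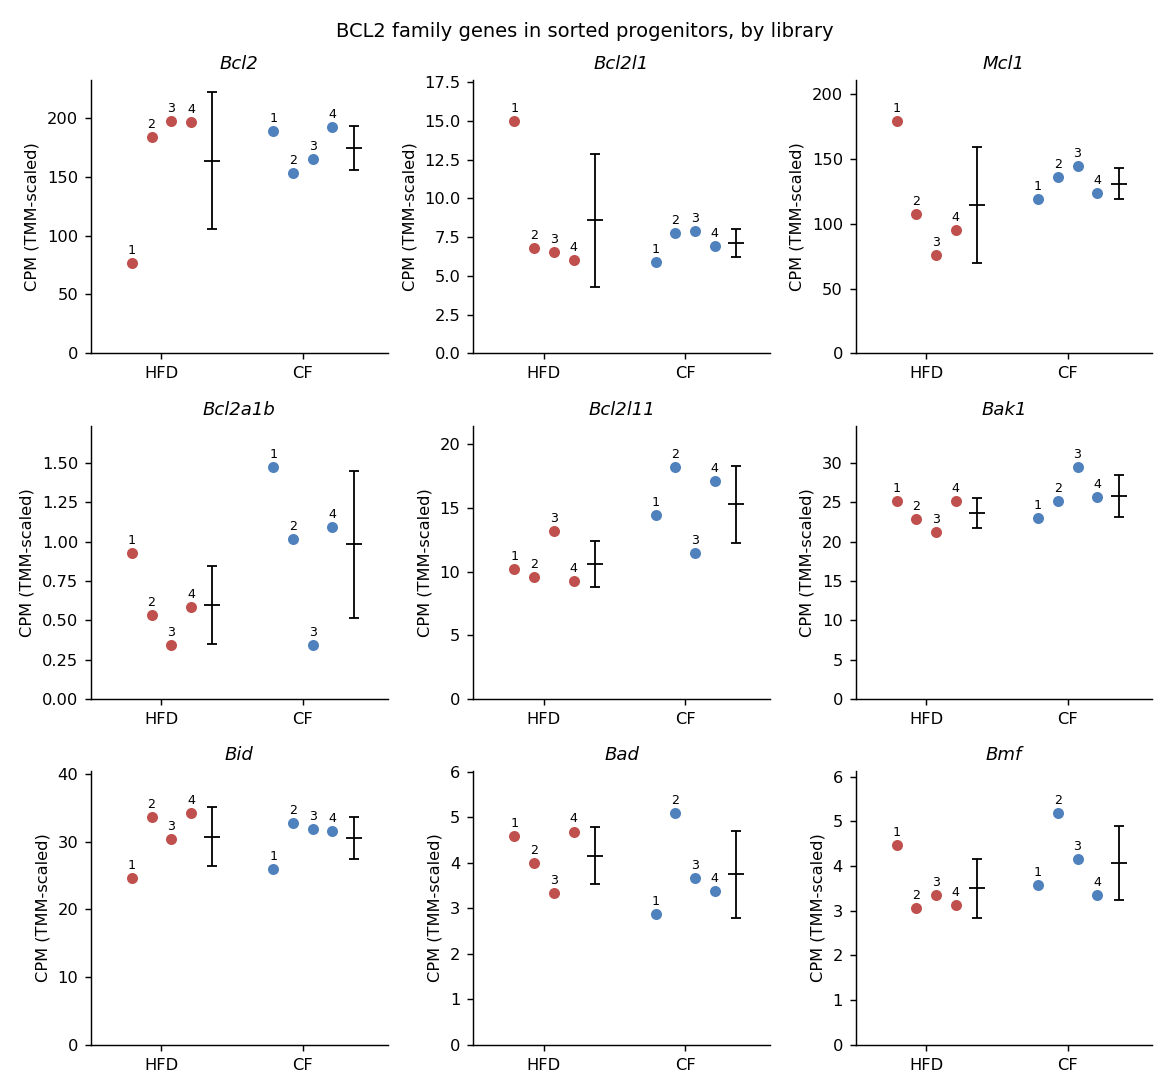
TMM-scaled CPM of the 9 BCL2 family genes, 1 panel a gene with its own axis from 0. Points are libraries, numbered by replicate, in HFD (red) and CF (blue), and the black bars are the mean and SD (n = 4). HFD1 lies far below the other HFD libraries in Bcl2 and far above them in Bcl2l1 and Mcl1, and in Bcl2l11 3 of the 4 HFD points lie below every CF point.

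Among the protective genes, Bcl2 (ENSMUSG00000057329, chr1:106538178-106714274, minus strand, GRCm38), the founding member of the family, had 77.0, 184, 197 and 197 CPM in HFD1 to HFD4. In CF1 to CF4 it had 189, 153, 165 and 192 CPM. HFD1 was the lowest library, while the other 3 HFD libraries lay in the upper part of the CF range or just above it. The mean was 164 ± 58.1 CPM in HFD and 175 ± 18.8 CPM in CF (SD, n = 4 each). HFD differed from CF by a log2 fold change of -0.10 (standard error 0.27, 95% interval -0.72 to 0.53, edgeR adjusted p = 0.97). Without HFD1 it was 0.14 (standard error 0.12, edgeR adjusted p = 0.62), and without HFD1 and CF1 it was 0.18. With all 8 libraries kept, the log2 fold change was also positive with library size alone (0.10) and with sample quality weights in limma (0.063). The direction of Bcl2 thus depended on HFD1 and on the scaling and weighting, and none of these fits called it. With 2399 to 8114 counts a library, counting error was 1.28% of the value and did not limit it. HFD1 was also the library with the lowest sum of sorted progenitor markers, and whether this accounts for its Bcl2 level was not tested. The antisense gene D630008O14Rik covers 6.1% of the exon bases of Bcl2.

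Bcl2l1 (ENSMUSG00000007659, chr2:152780668-152831728, minus strand) encodes BCL-XL, which is known to keep red cell precursors alive. It had 14.96, 6.76, 6.56 and 6.02 CPM in HFD1 to HFD4, and 5.92, 7.76, 7.87 and 6.94 CPM in CF1 to CF4. HFD1 was the highest library, and HFD2 to HFD4 lay within the CF range. The means were 8.57 ± 4.27 CPM in HFD and 7.12 ± 0.90 CPM in CF. HFD and CF differed by a log2 fold change of 0.27 (standard error 0.30, 95% interval -0.41 to 0.94, edgeR adjusted p = 0.90). Without HFD1 it turned to -0.14 (edgeR adjusted p = 0.71), and with all 8 libraries and sample quality weights in limma to -0.083. Library size alone gave 0.44. The erythroid marker sum of 723 CPM stood in the same library as the 14.96 CPM of Bcl2l1. In CF, both were lowest in CF1 and highest in CF3, with erythroid sums of 103, 170, 181 and 126 CPM in CF1 to CF4. In HFD2 to HFD4 they did not run together, since HFD4, with a sum of 166 CPM, had the lowest Bcl2l1 of its diet and HFD3, with 117 CPM, did not. The neutrophil sum did fall with Bcl2l1 from HFD2 to HFD4 (3646, 1307 and 978 CPM), and both were highest in HFD1. In CF1 to CF4 this sum was 1996, 6695, 6235 and 6086 CPM, also lowest in CF1, but highest in CF2 and not in CF3. Of all libraries CF1 had the lowest Bcl2l1 but not the lowest neutrophil sum. Whether either list accounts for the level of Bcl2l1 was not tested.

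Mcl1 (ENSMUSG00000038612, chr3:95658788-95663176, plus strand), whose short-lived protein is needed by many blood progenitors and by neutrophils, had 179, 108, 76.0 and 95.1 CPM in HFD1 to HFD4. It had 119, 136, 145 and 124 CPM in CF1 to CF4. HFD1 was again the highest of all libraries, whereas HFD2, HFD3 and HFD4 were the 3 lowest. The means were 114 ± 44.95 CPM in HFD and 131 ± 11.8 CPM in CF, for a log2 fold change of -0.20 (standard error 0.24, 95% interval -0.74 to 0.35, edgeR adjusted p = 0.91). Without HFD1 it was -0.50 (standard error 0.14, unadjusted p = 0.0061, edgeR adjusted p = 0.14), with 3 of 3 HFD libraries below every CF library, and without HFD1 and CF1 it was -0.54 (edgeR adjusted p = 0.12). Neither passed the threshold. Without HFD3 the value shrank to -0.043, and with library size alone to -0.017. The neutrophil sums moved with these levels: HFD4, HFD3, CF1 and HFD2 had sums of 978, 1307, 1996 and 3646 CPM and were the 4 libraries lowest in Mcl1. CF4, CF3, CF2 and HFD1 had 6086, 6235, 6695 and 20910 CPM and were the 4 highest, and the part of neutrophil RNA in Mcl1 was not tested.

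**Figure D2:**
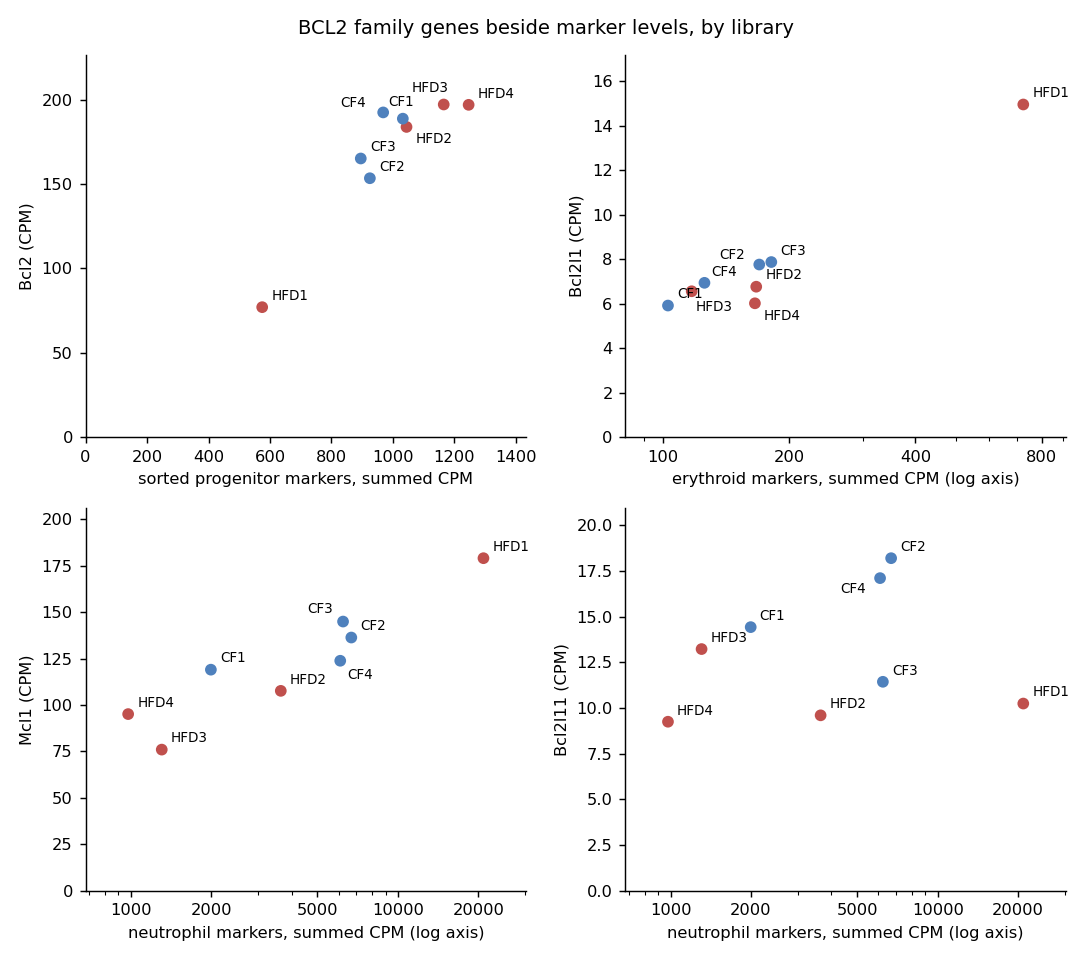
CPM of a BCL2 family gene (vertical axis from 0) against the summed CPM of a marker list (horizontal axis, linear for sorted progenitor markers and log for the others), 1 point a library, HFD red and CF blue. HFD1 is the extreme point for Bcl2, Bcl2l1 and Mcl1, but for Bcl2l11 its 10.2 CPM lies among the other HFD libraries, which had 9.25 to 13.2 CPM.

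Bcl2a1b (ENSMUSG00000089929, chr9:89199209-89207827, plus strand) is 1 of several mouse copies of the gene for A1, a protective protein induced by NF-kB in blood cells. It was the least abundant member by CPM, with 0.93, 0.53, 0.34 and 0.58 CPM in HFD1 to HFD4 and 1.47, 1.02, 0.35 and 1.09 CPM in CF1 to CF4. All 4 HFD libraries were below the CF mean of 0.98 ± 0.47 CPM (SD, n = 4), but CF3 was as low as the lowest HFD library. Its log2 fold change of -0.72 had a standard error of 0.49 (95% interval -1.83 to 0.38, edgeR adjusted p = 0.80). It was -0.46 without CF1, -1.002 without CF3 and -1.02 without HFD1, and -0.29 in the linear model on log2(CPM + 1), a scale that understates changes of low genes. Behind these values stood 11 to 57 counts a library, with a counting error of 18.9%, while the spread between libraries was 41.1% in HFD and 47.7% in CF.

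Reads of Bcl2a1b cannot be told with certainty from those of its copies. The coding sequences of Bcl2a1b and Bcl2a1d, both of 516 bases, differed at 6 positions (98.8% identity), and Bcl2a1b and Bcl2a1a at 11. Counted from 1 at the first coding base, with Bcl2a1b first, the 6 were G4T, T48C, A94C, G312A, C381G and T490A. The first 60 coding bases show how thinly the differences, here in capitals, are spread.
Bcl2a1b (chr9:89199360-89199419, plus strand): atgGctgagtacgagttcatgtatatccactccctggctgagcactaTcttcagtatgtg
Bcl2a1d (chr9:88731660-88731719, minus strand): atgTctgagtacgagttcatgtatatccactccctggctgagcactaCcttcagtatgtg

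Of the 743 windows of 75 bases, the read length, in the Bcl2a1b transcript, 43.5% also occurred in another Bcl2a1 copy and 68.4% in the transcript of any other gene, Gm29094 included, which covers 49.1% of its exon bases on the same strand. Only uniquely mapped pairs had been counted. Bcl2a1d had 0.41 to 0.81 CPM in HFD and 0.38 to 1.58 CPM in CF (log2 fold change -0.41, edgeR adjusted p = 0.90). With the counts of Bcl2a1b and Bcl2a1d summed, the log2 fold change was -0.56 (edgeR adjusted p = 0.81). Bcl2a1a and Bcl2a1c were not in the count table, so this sum does not cover every A1 copy. Summed or alone, the A1 copies that were counted were not called.

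Bak1 (ENSMUSG00000057789, chr17:27019810-27029009, minus strand) is the pore-forming effector of the set. It had 25.1, 22.9, 21.3 and 25.2 CPM in HFD1 to HFD4 and 23.1, 25.2, 29.5 and 25.7 CPM in CF1 to CF4. Its groups overlapped, and the libraries stayed closer together than for the protective genes, with a highest value 1.39 times the lowest. The log2 fold change was -0.13 (standard error 0.11, 95% interval -0.38 to 0.12, edgeR adjusted p = 0.84), moving between -0.061 without CF3 (-0.083 without HFD3) and -0.20 without HFD4, and it was 0.056 with library size alone. Unlike Bcl2, Bcl2l1 and Mcl1, Bak1 in HFD1 lay within the range of the other libraries. Exons of Ggnbp1 on the opposite strand cover 18.2% of its exon bases, and since it is not given whether counting used the strand, reads from there cannot be assigned.

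Bcl2l11 (ENSMUSG00000027381, chr2:128126038-128162547, plus strand) encodes BIM, a BH3-only protein that is held low by growth factors and triggers death when they are withdrawn. It had the lowest p of the 9 genes. Its values were 10.2, 9.60, 13.2 and 9.25 CPM in HFD1 to HFD4 and 14.4, 18.2, 11.4 and 17.1 CPM in CF1 to CF4. Every HFD library was below the CF mean, and the groups overlapped through HFD3, which exceeded CF3. The means were 10.6 ± 1.81 CPM in HFD and 15.3 ± 3.02 CPM in CF (SD, n = 4 each), with 305 to 658 counts a library. HFD differed from CF by a log2 fold change of -0.53 (standard error 0.18, 95% interval -0.94 to -0.12, unadjusted p = 0.017, edgeR adjusted p = 0.35), so the gene was not called, and by p it ranked 763 of the 15837 genes. Leaving out single libraries kept it between -0.66 and -0.44, and without HFD1 and CF1 it was -0.54 (edgeR adjusted p = 0.28). With library size alone it was -0.35 (unadjusted p = 0.18), and with sample quality weights in limma -0.40 (unadjusted p = 0.079). Over 19 alternatives the unadjusted p was below 0.05 in 15, and the adjusted p ranged from 0.16 to 0.94. Among all windows of 75 bases in its transcripts, 0 occurred in another gene, as was also the case for Bcl2l1, Mcl1 and Bmf.

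Bid (ENSMUSG00000004446, chr6:120891930-120916853, minus strand), which caspase 8 cleaves to link death receptors to mitochondria, had 24.7, 33.7, 30.4 and 34.2 CPM in HFD1 to HFD4. It had 25.99, 32.8, 31.9 and 31.6 CPM in CF1 to CF4. The lowest library of each diet was replicate 1, and the others ran together, with means of 30.7 ± 4.39 CPM in HFD and 30.6 ± 3.10 CPM in CF. HFD differed from CF by a log2 fold change of 0.0076 (standard error 0.13, 95% interval -0.29 to 0.31, edgeR adjusted p = 1.00). Its sign changed in 6 of 19 alternatives, and library size alone gave 0.20. Bcl2l13, itself of the family, covers 17.7% of the exon bases of Bid on the opposite strand.

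Bad (ENSMUSG00000024959, chr19:6941861-6951899, plus strand), whose protein is kept inactive by kinases of growth factor signalling, had 4.59, 4.00, 3.33 and 4.68 CPM in HFD1 to HFD4 and 2.87, 5.09, 3.65 and 3.38 CPM in CF1 to CF4. Both extremes were CF libraries. Its log2 fold change was 0.15 (standard error 0.22, 95% interval -0.35 to 0.64, edgeR adjusted p = 0.93). It moved between 0.040 without CF1 and 0.33 without CF2, and was -0.011 without HFD1 and CF1 and 0.34 with library size alone. Without HFD1, HFD3 or HFD4 it was 0.098, 0.24 and 0.044. Gpr137 overlaps 20.5% of its exon bases on the opposite strand.

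Bmf (ENSMUSG00000040093, chr2:118528757-118549687, minus strand), a BH3-only gene tied to the cytoskeleton through a dynein light chain, had 4.46, 3.05, 3.36 and 3.13 CPM in HFD1 to HFD4 and 3.57, 5.19, 4.16 and 3.35 CPM in CF1 to CF4. Here too HFD1 was the highest library of its diet, but CF2 exceeded it. The log2 fold change was -0.22 (standard error 0.21, 95% interval -0.69 to 0.26, edgeR adjusted p = 0.87) and without single libraries moved between -0.35 without HFD1 (edgeR adjusted p = 0.47) and -0.077 without CF2, or -0.014 with library size alone. At 97 to 163 counts a library, counting error was 8.71% of the value, against a spread of 18.7% in HFD and 20.2% in CF.

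**Figure D3:**
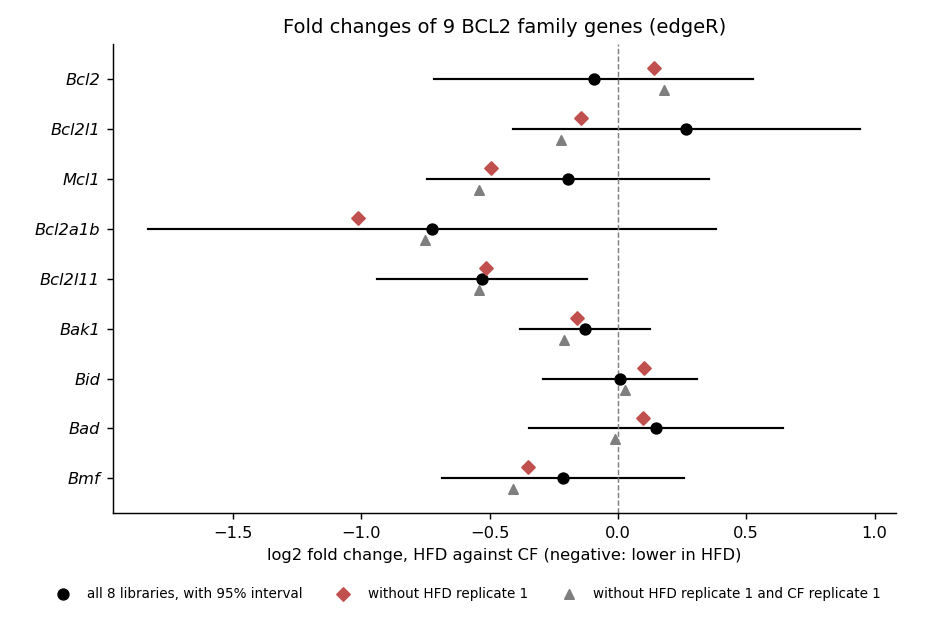
Log2 fold changes of HFD against CF from edgeR for the 9 genes (negative values are lower in HFD). Black points with lines are all 8 libraries with 95% intervals, diamonds leave out HFD1 and triangles leave out HFD1 and CF1. Bcl2 and Bcl2l1 cross 0 when HFD1 is left out, Mcl1 moves from -0.20 to -0.50, and Bcl2l11 stays near -0.53.

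Per length of exons, the protective transcripts Mcl1 and Bcl2 had the highest means of the set. Mcl1 had 35.9 ± 9.27 CPM per kb over the 8 libraries (SD, n = 8) and Bcl2 18.5 ± 4.42, and Mcl1 was above Bcl2 in 8 of 8 libraries (7 of 8 by the length of the longest transcript). Bak1 followed with 10.3 ± 1.02 CPM per kb and Bid with 8.64 ± 0.99. Bcl2 exceeded Bak1 in 7 of 8 libraries, the exception being HFD1 (8.41 against 10.4 CPM per kb). Bak1 exceeded Bid in 8 of 8 libraries although their ranges overlapped, and with the length of the longest transcript in place of all exons the order of this pair turned. A gap of 5.05-fold separated Bid from the next gene, and the ranges on either side of it did not overlap.

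Below that gap Bmf lay under 3 genes without overlap, since its highest library (0.99 CPM per kb) was below the lowest of Bcl2l1, Bcl2l11 and Bad (1.29, 1.152 and 1.12), while the order of these 3 genes was not resolved. Bcl2l1 had 1.71 ± 0.65 CPM per kb, Bcl2l11 1.61 ± 0.43 and Bad 1.54 ± 0.30, with Bcl2l1 above Bcl2l11, and Bcl2l11 above Bad, in 4 of 8 libraries. Bcl2a1b, at 0.97 ± 0.49, and Bmf, at 0.72 ± 0.14, had the lowest means, with Bcl2a1b above Bmf in 6 of 8 and overlapping Bad. By the length of the longest transcript, the ranges of Bcl2l11 and Bcl2a1b did not overlap. BH3-only genes thus spanned from Bid near the effector Bak1 to Bmf, the lowest by its mean.

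**Figure D4:**
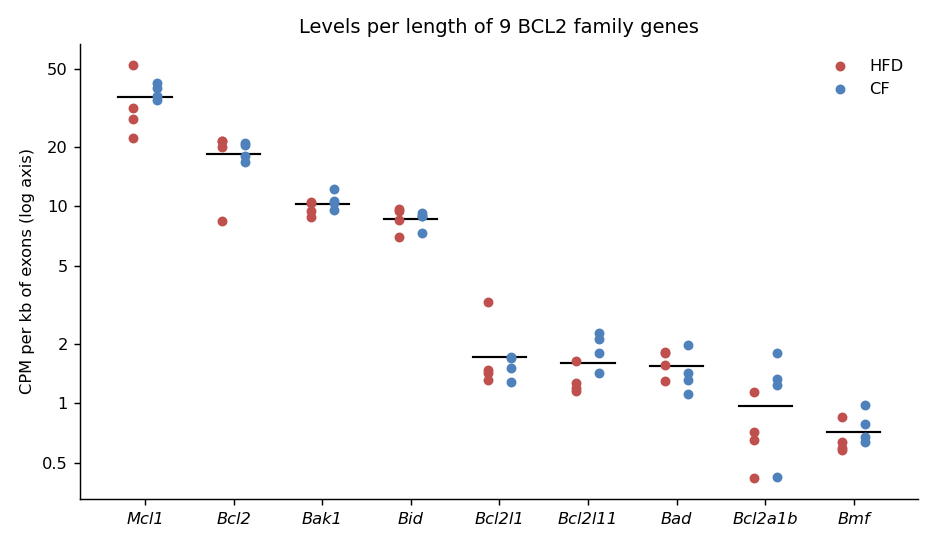
CPM per kb of exons of the 9 genes on a log axis, in order of their mean over 8 libraries (black line). Points are libraries, HFD red and CF blue. Mcl1, Bcl2, Bak1 and Bid lie above the other 5 genes with no overlap between these 2 sets.

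As a share of the summed CPM per kb of the 9 genes, the 4 protective genes held 70.7% ± 3.25 in HFD and 72.0% ± 1.497 in CF, the effector Bak1 12.95% ± 0.83 and 12.8% ± 0.83, and the 4 BH3-only genes 16.3% ± 2.56 and 15.2% ± 1.45 (SD, n = 4 each). These differences between the diets were smaller than the spread between libraries. Within the protective share, HFD1 had another make-up than the rest. There Mcl1 held 60.5% and Bcl2 9.72%, whereas Mcl1 held 33.4% to 48.5% and Bcl2 19.8% to 32.3% in the other 7 libraries. The ratio of Bcl2 to Mcl1 per kb was 0.16 in HFD1, 0.64 to 0.97 in HFD2 to HFD4 and 0.42 to 0.59 in CF, so that HFD2 to HFD4 lay above CF and HFD1 below it. The summed level of 6 plasmacytoid DC markers also set HFD2 to HFD4 apart from CF, with 228 to 306 CPM against 153 to 198 CPM, and was 154 CPM in HFD1. Of these markers Tcf4 alone overlapped (114 to 156 against 98.8 to 137 CPM). The sum of 6 sorted progenitor markers did so too, with 1044 to 1246 CPM against 895 to 1032 CPM, and was 575 CPM in HFD1. Of that list Irf8 alone was apart (509 to 674 against 372 to 432 CPM). The part of either list in the ratio was not tested. This ratio was looked at after the values of both genes were known and was not tested.

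Transcripts whose log2 CPM ran most like a member over the 8 libraries were sought among 11775 protein-coding genes by Pearson's r. With 8 points, high values are common: the median gene reached an r of 0.972 with its best partner. L3mbtl3, Hdac9 and Smarcad1 ran most like Bcl2 (r = 0.989, 0.986 and 0.982), Ranbp10, Serpinb1a and Cd24a most like Bcl2l1 (r = 0.994, 0.992 and 0.99), and Klf6, Fosl2 and Bcl6 most like Mcl1 (r = 0.982, 0.981 and 0.98). All 3 members take their extreme value in HFD1, which these points share. Bcl2l11 had no partner as close, with Chsy1, Relb and Arl4c at 0.919, 0.915 and 0.901. For Bid they were Rttn, Rasa3 and Vhl (0.977 to 0.963), for Bad Ywhab, Ech1 and Atp6v0e (0.966 to 0.95), for Bmf Sparc, Rnf216 and Aktip (0.956 to 0.95), for Bak1 Tpm3, Mcm10 and Ddx5 (0.917 to 0.901) and for Bcl2a1b Mrps17, Skil and Parg (0.915 to 0.892). Among the members themselves, Bcl2 ran opposite to Bcl2l1 (r = -0.98) and to Mcl1 (r = -0.761).

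The wider pathway was described with lists of 88 genes, the 9 included, of which 81 were in the table and tested. By edgeR 0 of 81 were called, while 3 were lower and 3 higher in HFD with unadjusted p under 0.05 (over all genes, 0.423% were called and 8.56% had an unadjusted p under 0.05), and 0 of 81 were called by DESeq2, limma voom with or without sample quality weights or the linear model. Their median log2 fold change was 0.027, close to the 0.055 of all genes, and the groups were apart in 2 of the 81, against 6.16% of all genes. With library size alone in edgeR, 0 were lower and 9 higher at an unadjusted p under 0.05, where over all genes 611 were lower and 1571 higher. The median of the 81 was then 0.22, beside 0.25 for all genes. Without HFD1 and CF1, edgeR called 2 of 81, Csf3r and Fas, both lower in HFD. It called 2.45% of all genes with these libraries left out, so the share of listed genes was close to that of the table. Csf3r, the receptor for G-CSF, is itself abundant in neutrophils, and these libraries were left out for their neutrophil sums.

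Among the other BCL2 proteins, Bax, the second effector, had 6.61 ± 1.21 CPM in HFD and 6.85 ± 1.25 CPM in CF (log2 fold change -0.05, edgeR adjusted p = 0.98). Bcl2l2, a protective gene, had a log2 fold change of 0.11 (adjusted p = 0.98). Of the BH3-only genes that p53 is known to induce, Pmaip1 (NOXA) had -0.33 (adjusted p = 0.74) and Bbc3 (PUMA) 0.26 (adjusted p = 0.92). Bnip3l, which marks mitochondria for removal in red cell precursors, had 71.5 CPM in HFD1, 42.0 to 46.8 CPM in the other HFD libraries and 33.8 to 43.4 CPM in CF (0.35, edgeR adjusted p = 0.70), and Bcl2l13 had 0.11 (adjusted p = 0.88). None of the 10 relatives tested beyond the 9 genes passed an unadjusted p of 0.05.

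Downstream, 19 genes of the apoptosome and caspase list had a median log2 fold change of 0.037. Casp2, a caspase linked to DNA damage, had 23.3 to 35.4 CPM in HFD but 73.8, 65.5, 35.2 and 32.6 CPM in CF1 to CF4. Its log2 fold change of -0.76 (edgeR adjusted p = 0.44) thus came from CF1 and CF2, while CF3 and CF4 lay within the HFD range. In 11 death receptor and adaptor genes the fold changes lay between -0.13 and 0.12, with Fadd at 0.11 and Traf2 at 0.12 (edgeR adjusted p = 0.91 and 0.87). Of the 4 receptors of this list, Fas, Tnfrsf1a and Tnfrsf1b were each highest in HFD1 and Tnfrsf10b was lowest there, at 0.51 CPM against 0.73 to 1.39 CPM in the other libraries. Fas had 4.88 CPM there, 0.46 to 0.94 CPM in HFD2 to HFD4 and 1.01 to 2.30 CPM in CF, so that its value of -0.12 rested on 1 library.

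Of the 22 partners and regulators, Pim1, a kinase downstream of cytokine receptors that phosphorylates BAD, had the lowest p. It had 56.4, 46.1, 48.04 and 62.6 CPM in HFD1 to HFD4 and 34.03, 36.1, 46.4 and 38.3 CPM in CF1 to CF4, and of the HFD libraries HFD2 alone was below CF3. This gave a log2 fold change of 0.46 (standard error 0.14, edgeR adjusted p = 0.26), and 14.5% of its exon bases lie under the antisense gene Gm26885. Becn1, a BH3 protein of autophagy, had 19.6 ± 5.66 CPM in HFD and 27.9 ± 4.41 CPM in CF (SD, n = 4 each; log2 fold change -0.51, edgeR adjusted p = 0.54), with 43.9% of its exon bases under Cntd1 on the opposite strand. Among 10 survival cytokine receptors, Csf2rb2, the mouse receptor chain for IL-3, had 39.9 to 68.7 CPM in HFD and 29.5 to 39.3 CPM in CF, so the groups were apart. Its log2 fold change was 0.61 (standard error 0.19, edgeR adjusted p = 0.29), and it has a close paralog in Csf2rb, which had 0.13 (edgeR adjusted p = 0.95). Csf1r, the receptor used in the sort as CD115, had -0.24 (adjusted p = 0.75).

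**Figure D5:**
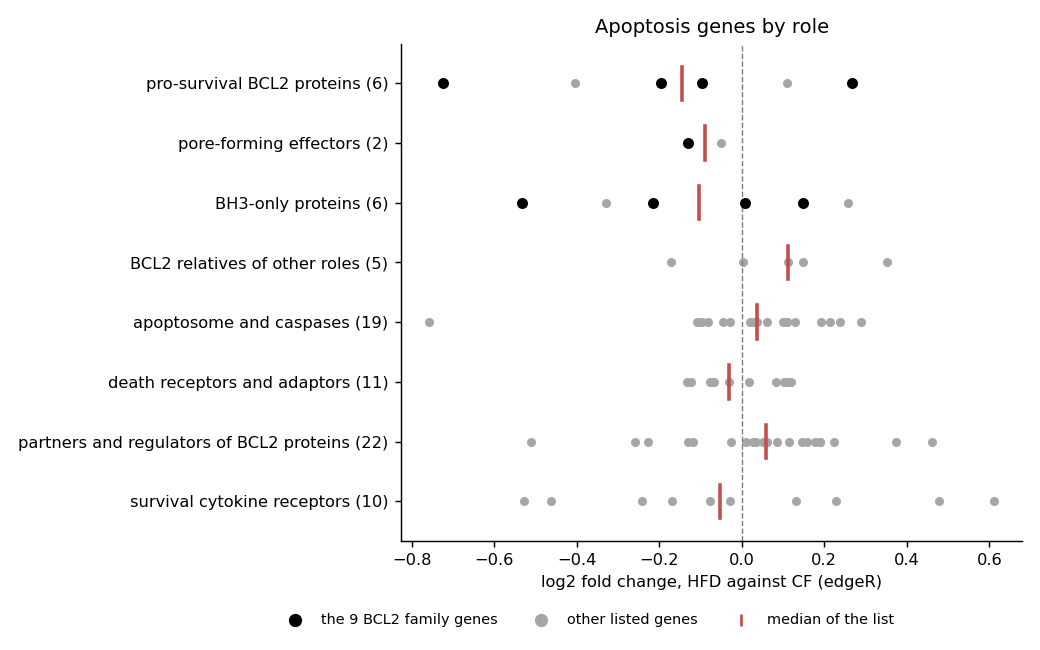
Log2 fold changes of HFD against CF (edgeR) for the genes of each list, with the number tested in parentheses. Black points are the 9 BCL2 family genes, grey points the other genes and red lines the list medians, which lie between -0.15 and 0.11.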

How the data were processed

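The authors aligned pairs of 75 bp reads with HISAT2, kept uniquely mapped pairs and counted them per gene with StringTie on the GENCODE comprehensive annotation, and they deposited raw counts with a column for each library. FastQC, cutadapt and GRCm38 are named in the submitters' processing notes. The annotation release, tool versions and strandedness are not given in the sources used here. Columns were matched to libraries by their sample number.

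Ensembl identifiers were matched to GENCODE vM21 (16067 of 16119). The diets were compared by the quasi-likelihood test of edgeR 4.0.16 (R 4.3.3, robust setting, no covariate) after filterByExpr, which left out 282 genes, and TMM scaling (factors of 0.80 to 1.18). Genes with a Benjamini-Hochberg adjusted p under 0.05 over all 15837 genes tested were called. Levels between genes were compared as CPM per kb of exons. Log2 CPM used a prior count of 2. The test was also tried on simulated counts.

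The 9 genes, the lists and the tests were chosen with earlier results of these data known. Genes named are the 9, the Bcl2a1 copies, in each list the 2 others with the lowest p and any called gene, and the 3 genes that ran most like each of the 9. A gene that this rule names is left out of the text. Csf2rb, Csf3r, Fas, Tnfrsf1a, Tnfrsf1b and Tnfrsf10b were named after their values were seen, as were the ratios between genes. As alternatives, scaling was done by RLE, by library size alone or on protein-coding genes alone. DESeq2 1.42.0, voom of limma 3.58.1 (plain or with sample quality weights) and a linear model on log2(CPM + 1) took the place of edgeR. Other fits used no filter, or 1 CPM in at least 4 libraries, or blocked on the replicate number, or left out each library. Counts of Bcl2a1b and Bcl2a1d were summed, and the longest transcript served as length. Python 3.11.15 and matplotlib 3.10.9 made the figures.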

Additional observations from a re-analysis of the deposited data

Results flagged for a closer look

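Among the 18 groups of 4 libraries looked at, 9 genes in both diets, 2 held a library far from the other 3, and chance gives about 1 in 20. Bcl2 had 77.0 CPM in HFD1, the lowest of its diet, where the others had 184 to 197 CPM. Bcl2l1 had 14.96 CPM in HFD1, the highest of its diet, where the others had 6.02 to 6.76 CPM. Both were the same library, in which the neutrophil and erythroid marker sums were also highest, and the part of those cells in these values was not tested.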

How the results depend on the processing

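No member was called in any of 171 fits, 19 a gene, and in 156 the direction was the same. The filter of 1 CPM in 4 libraries removed Bcl2a1b, which alone was also fitted with the counts of Bcl2a1d added. The direction turned for Bcl2 with library size alone (0.10), with sample quality weights (0.063), without HFD1 and CF1 (0.18) and without single libraries (-0.23 to 0.14); for Bcl2l1 with sample quality weights (-0.083), without HFD1 and CF1 (-0.22) and without single libraries (-0.14 to 0.37); for Bak1 with library size alone (0.056); for Bid with RLE factors (-0.0035), protein-coding genes alone (-0.031), DESeq2 (-0.0030) and without single libraries (-0.089 to 0.0997); and for Bad without HFD1 and CF1 (-0.011). Library size alone moved the median of all genes from 0.055 to 0.25. Over the whole table edgeR called 67 genes, and 108 with library size alone, 0 with protein-coding genes alone, 567 under DESeq2, 282 with sample quality weights, 0 under the linear model, 388 without HFD1 and CF1 and 0 to 200 without single libraries. Of the pathway genes, 2 were called without HFD1 and CF1. With a replicate block 0 genes were called, and the log2 value of Bcl2l11 was -0.53 (edgeR adjusted p = 0.94). Libraries of the same number did not deviate together (r from -0.44 to -0.078). With deviations taken from means of 4 libraries, this check cannot show whether the numbers pair them. With the longest transcript as length, levels became 23.5 CPM per kb for Bcl2, 3.06 for Bcl2l1, 2.57 for Bcl2l11, 12.7 for Bid and 2.58 for Bad. Counting error was largest for Bcl2a1b, at 18.9% of its value. The causes of these shifts were not tested.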
